A study of Mus musculus with 6 samples.

Results

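A set of 6 genes that steer T cells between blood, lymph and lymphoid tissue was followed through 4 single-cell libraries of ovalbumin-specific CD4 T cells of mouse Peyer's patches, which are gut lymphoid tissue made of B cell follicles with T zones between them. They were the transcription factor gene Klf2, the receptor genes S1pr1, Ccr7, Gpr183 and Il7r, and the selectin ligand gene Selplg. All 6 were taken by symbol from the 32285 genes of the deposited matrices, and each matched 1 row. The mutant cells, called TgfbrIWT/mut, were heterozygous for a knock-in of the M318R change in Tgfbr1, the type I receptor for transforming growth factor beta, an allele found in Loeys-Dietz syndrome. The WT cells carried no such change. Donors of both genotypes were OTII+/+RAG-/- mice, whose T cells all carry one receptor for an ovalbumin peptide and which make no other T cells and no B cells, so the allele was in every donor cell and in no host cell. Purified donor cells went into CD45.1 WT hosts, which drank water with 1.5% ovalbumin for 7 days. On day 8, CD45.2+CD45.1-CD4+CD8-TCRβ+ cells were sorted from the patches and sequenced by a droplet method that counts the 3′ ends of transcripts with unique molecular identifiers (UMIs).

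There were 2 TgfbrIWT/mut and 2 WT gene expression libraries. The labels do not say whether a library is 1 host or a pool, so the p-values here measure the spread between libraries, which may be technical. A test that leaves out 1 library has a single library in 1 genotype, and its p-value holds no spread within that genotype. Both WT matrices also hold 3 antibody tags and neither TgfbrIWT/mut matrix holds any, so genotype and handling cannot be told apart. After filters 2970 T cells remained, 882 and 181 in TgfbrIWT/mut libraries 1 and 2 and 1276 and 631 in WT libraries 1 and 2. Median depth was 8638 to 9039 UMIs a cell. All 8 T cell markers were present in every library, at a summed 14734 to 15011 CPM (counts per 1e6 UMIs of the library or cluster). The summed CPM of 8 B cell markers ran from 16.8 to 25.2, and 4 kept barcodes were shared between libraries. Counts from the 3′ end do not read the M318R change and so do not check the genotype labels.

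Recirculating T cells enter lymphoid tissue from blood, search the T zone for antigen, and leave through lymph. Entry uses selectin ligands and CCR7, which follows chemokines of the T zone, while exit uses the sphingosine-1-phosphate receptor encoded by S1pr1. Gpr183 encodes EBI2, an oxysterol receptor that draws cells to the border between follicle and T zone. Il7r encodes the receptor chain through which interleukin 7 keeps naive and memory T cells alive, and Selplg encodes PSGL-1, the protein scaffold of selectin ligands. In mice, KLF2 keeps T cells quiescent, induces S1pr1 and restrains the formation of T follicular helper (Tfh) cells, which live in B cell follicles and help B cells.

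Klf2 lies on chromosome 8 at 72319033 to 72321656 on the plus strand of GRCm38 (GENCODE M21). The other 5 genes are on minus strands, S1pr1 on chromosome 3 at 115710433 to 115715072, Ccr7 on chromosome 11 at 99144196 to 99155077, Gpr183 on chromosome 14 at 121952551 to 121965195, Il7r on chromosome 15 at 9505788 to 9530176 and Selplg on chromosome 5 at 113818536 to 113832644. Promoter entries from RefSeq (GRCm38.p6) were held for 3 of the 6, and the whole Il7r window lay within the annotated gene. Klf2 is the transcription factor of the set. Gpr183 alone of the 6 passed the genotype test inside a cell class, the Tfh-like cells described below. It did not pass in the first of that class's 2 clusters alone and was too low to test in the second. The promoters of Klf2 and Gpr183 are shown for these reasons. They run 5′ to 3′ on the gene's strand, up to 250 bases before the RefSeq start and without the bases that GENCODE places in the gene (29 for Klf2, 2 for Gpr183), and cover chr8:72318812-72319032 and chr14:121965196-121965443. Capitals mark a match to the binding motif of MEF2 factors.
Klf2: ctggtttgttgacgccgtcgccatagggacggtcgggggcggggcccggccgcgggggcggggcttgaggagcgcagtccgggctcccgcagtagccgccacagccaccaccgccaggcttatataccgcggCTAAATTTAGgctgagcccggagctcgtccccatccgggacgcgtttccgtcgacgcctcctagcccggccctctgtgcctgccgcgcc
Gpr183: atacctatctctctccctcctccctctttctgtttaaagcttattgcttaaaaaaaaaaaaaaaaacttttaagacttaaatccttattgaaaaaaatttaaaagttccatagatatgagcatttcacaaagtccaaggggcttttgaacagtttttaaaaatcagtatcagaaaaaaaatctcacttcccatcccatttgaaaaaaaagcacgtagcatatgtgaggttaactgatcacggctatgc
The Klf2 stretch was 71.5% G or C, and its MEF2 match stood 118 to 109 bases before the RefSeq start. The Gpr183 stretch was 31.9% G or C and held no match to any of the 3 motifs searched. Searched on both strands of 250 bases upstream, 1 window a gene, the MEF2 motif was in 0.518% of 27025 promoters, the KLF motif CACCC in 51.3% and the FOXO motif TGTTTAC in 3.09%. Klf2 also had CACCC on the opposite strand, 19 to 15 bases before the start, among the bases not printed. A match is a description of the letters and not evidence of binding.

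Across cell states, Klf2, S1pr1 and Ccr7 were each near their highest in naive or memory-like cells and near 0 in Tfh-like cells, while Gpr183 and Il7r were distributed differently. The states are clusters made without the 6 genes and named from fixed markers, and levels below are CPM, averaged over the libraries with at least 10 cells of that cluster. As cells were clustered together over all libraries, the order of the levels is given as a description. Klf2 averaged 336 ± 88.5 CPM (SD, n = 4 libraries) in the naive or memory-like cluster, which was led by Actn1, Satb1, Ms4a4b, Txk and Lef1 among its markers. It averaged 175 ± 72.8 (n = 3) in an unnamed cluster led by Eomes and Nkg7, 100 ± 22.1 in an unnamed cluster led by Id2 (cluster 3), and 81.2 ± 35.6 in recently stimulated-like cells, led by Egr3 and Nr4a1. An unnamed, shallow cluster (cluster 8, at 0.386 of the median depth) had 117 ± 107 CPM, from 31 UMIs in 117 cells. Interferon-signature-like, gut-homing effector-like and cluster 7 cells, the last led by Cdca7 and Srm, lay between 28.4 and 33.4 CPM. At a finer clustering the interferon-signature-like cluster, then of 79 cells, had 234 ± 37.5 CPM of Klf2 (n = 2), so that class has no settled place in the order. The 2 Tfh-like clusters had 4.16 ± 4.64 and 2.02 ± 2.77 CPM. In the order of clusters for Klf2, the naive or memory-like mean exceeded the next by 1.82 times the larger SD, the stimulated-like mean exceeded the next by 1.34 times and cluster 7 stood 1.44 times above the first Tfh-like cluster. All other neighbours lay within 1 SD of each other.

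The exit receptor S1pr1 averaged 158 ± 20.3 CPM in naive or memory-like cells, 3.63 times the larger SD above the 84.4 ± 8.76 of cluster 3. The shallow cluster 8 had 167 ± 56.3 CPM, not beyond its spread from the naive or memory-like value. Recently stimulated-like cells had 76.0 ± 31.9 CPM of S1pr1 and the Tfh-like clusters 13.5 ± 3.59 and 4.45 ± 5.11. Ccr7 averaged 186 ± 47.4 CPM in naive or memory-like cells, 106 ± 9.71 in cluster 3, 63.8 ± 24.4 in recently stimulated-like cells, and 1.43 ± 1.01 and 0.735 ± 1.47 in the Tfh-like clusters. The first 2 steps of that order were 1.69 and 1.73 times the larger SD. In gut-homing effector-like cells Ccr7 was at 5.39 ± 7.38 CPM (n = 3), from 3 UMIs in 93 cells.

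Gpr183 followed another order. Its mean was 367 ± 56.4 CPM in recently stimulated-like cells, 324 ± 13.9 (n = 3) in interferon-signature-like cells (189 ± 126 at the finer clustering, n = 2) and 299 ± 57.0 in cluster 3, neighbours that did not differ beyond their spread. Naive or memory-like cells had 167 ± 68.8 CPM of Gpr183 and the first Tfh-like cluster 88.3 ± 36.6. The second Tfh-like cluster, at 19.0 ± 8.09 CPM, stood 3.55 times the larger SD below the next cluster. The 2 Tfh-like clusters differed more from each other in Gpr183 than in Klf2 or Ccr7 CPM.

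Il7r and Selplg peaked together in gut-homing effector-like cells, a cluster named from Ccr9, Cxcr6 and Itgae that was also led by Gzmb, Il10 and Foxp3. Il7r had 414 CPM there in TgfbrIWT/mut library 1, against 166 and 199 in the WT libraries, for a mean of 260 ± 135. The next cluster for Il7r was the naive or memory-like one, at 51.9 ± 30.3 CPM, and no UMI of Il7r was found in the 347 cells of the second Tfh-like cluster. Selplg in the gut-homing effector-like cluster had 233 CPM in TgfbrIWT/mut library 1, against 396 and 371 in the WT libraries. Its mean of 333 ± 87.8 CPM was 2.20 times the larger SD above the 140 ± 23.6 of naive or memory-like cells. Unlike Klf2 and Ccr7, Selplg stayed at 48.3 ± 13.9 and 29.2 ± 7.96 CPM in the Tfh-like clusters. TgfbrIWT/mut library 2 had 2 gut-homing effector-like cells and gives no value there.

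**Figure D1:**
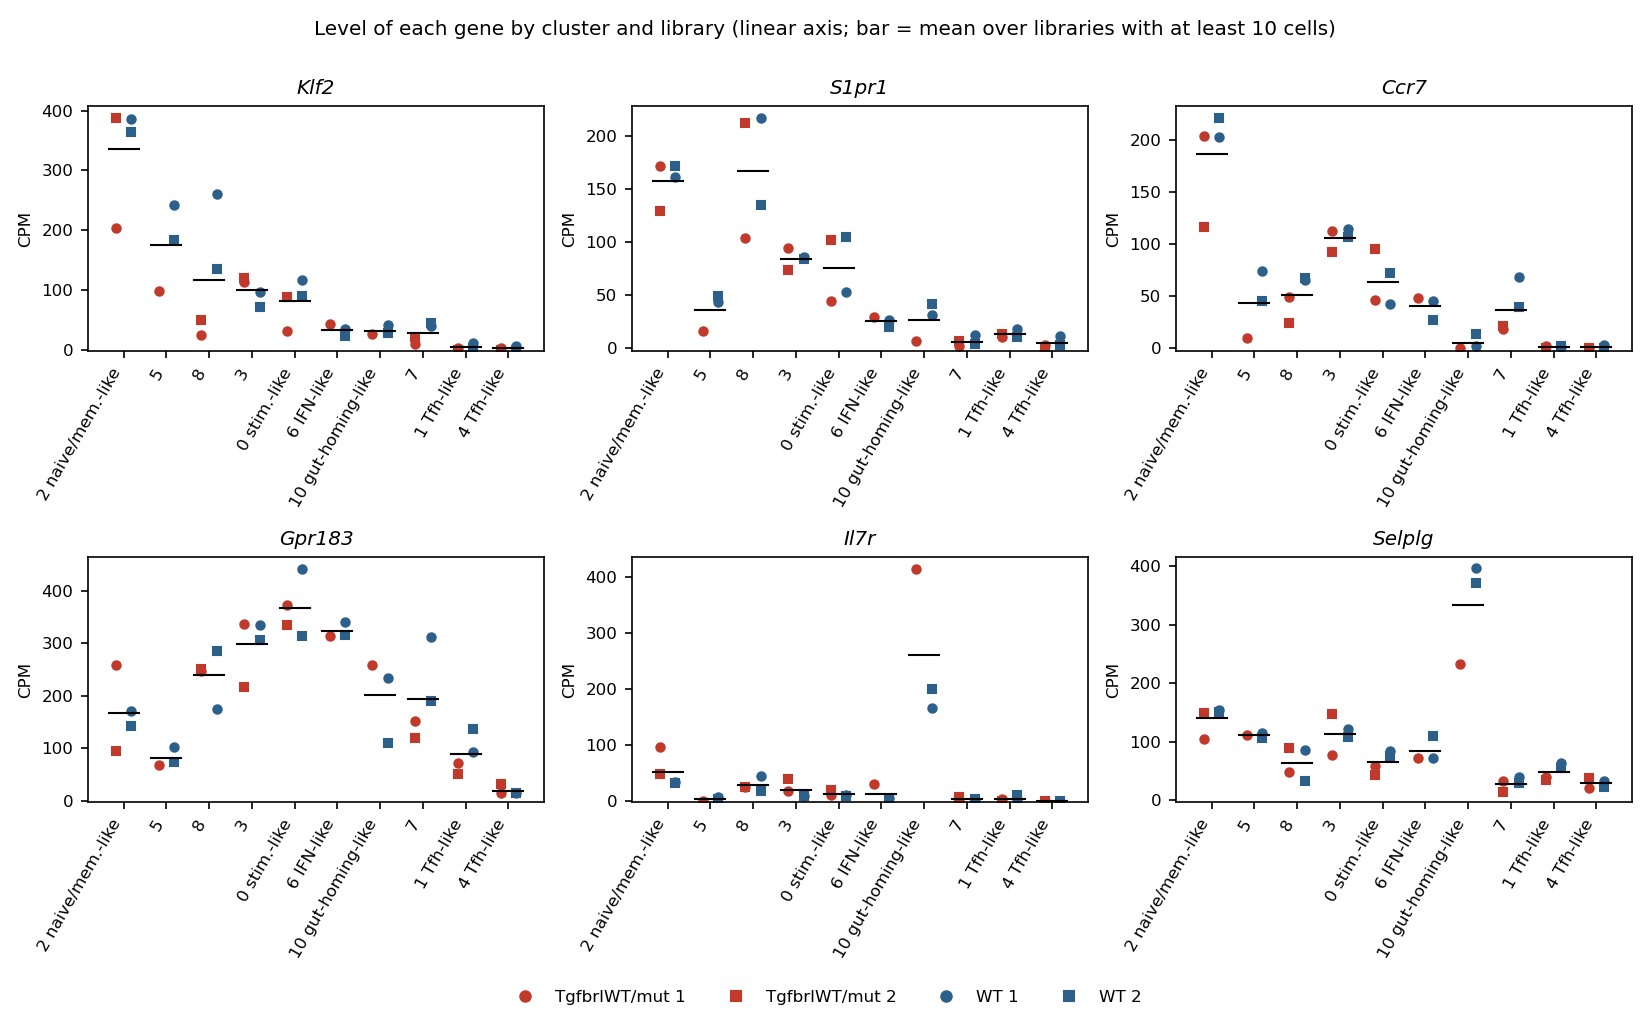
CPM of each gene (linear vertical axis, 1 panel a gene) in 10 clusters, ordered left to right by mean Klf2. Red points are TgfbrIWT/mut libraries and blue points WT libraries, circles library 1 and squares library 2, and bars are means over libraries with at least 10 cells. Klf2, S1pr1 and Ccr7 lie near 0 in both Tfh-like clusters, at the right, while Gpr183 is highest in the middle and Il7r and Selplg in gut-homing effector-like cells.

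Likeness of pattern was measured as Pearson's r of log2(CPM + 10) over 32 sums of cells, 1 for each cluster and library with at least 20 cells, among 3052 other genes. These sums share libraries and clusters, so r is a description. For Klf2 the most alike were Tnfsf4 (0.92), which encodes OX40 ligand, Ifi214 (0.90) and Lef1 (0.86), a transcription factor of naive T cells. For S1pr1 they were Ripor2 (0.93), Kbtbd11 (0.90) and Actn1 (0.90), and for Ccr7 they were Tnfsf4 (0.91), Adss (0.86) and Id2 (0.84). Gpr183 was most like B630019A10Rik (0.88), Anxa6 (0.82) and Agfg1 (0.82), and Il7r like 9930111J21Rik2 (0.81), the gut-homing integrin gene Itgb7 (0.79) and Crlf3 (0.79). Selplg was most like Rbms1, Npc2 and Txk, each at 0.81. Among the 6, Klf2 reached 0.87 with Ccr7 and 0.77 with S1pr1, S1pr1 reached 0.78 with Ccr7, and Il7r reached 0.70 with Selplg. Klf2 also had 0.70 with Selplg, 0.54 with Gpr183 and 0.52 with Il7r. The lowest value among the 6, 0.46, was that of Ccr7 with Il7r and with Selplg.

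Genotype was compared first over all kept T cells, summed per library. Klf2, Ccr7 and Selplg fell in TgfbrIWT/mut cells, and S1pr1, Gpr183 and Il7r did not pass the test. Values given as scaled CPM are CPM scaled by edgeR's TMM factors, which ran from 0.983 to 1.04 over all kept T cells, and those given as CPM are unscaled. Klf2 had 34.6 and 83.9 scaled CPM in TgfbrIWT/mut libraries 1 and 2, against 151 and 93.5 in WT libraries 1 and 2. The groups did not overlap, but TgfbrIWT/mut library 2 was closer to WT library 2 than to its own group's other library. The means were 59.2 ± 34.9 in TgfbrIWT/mut and 122 ± 40.7 in WT cells (SD, n = 2 each), a log2 fold change of -1.22 ± 0.29 (SE, edgeR quasi-likelihood test, adjusted p = 0.0439). Over all 10726 genes tested, 1.37% passed in either direction and 0.503% were lower.

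Ccr7 had 33.3 and 42.5 scaled CPM in the TgfbrIWT/mut libraries, against 84.1 and 60.8 in the WT libraries. Every TgfbrIWT/mut value was below every WT value, and the log2 fold change was -1.0 ± 0.18 (edgeR adjusted p = 0.00888). For Selplg the TgfbrIWT/mut libraries had 53.7 and 68.6 scaled CPM and the WT libraries 110 and 88, again with no overlap. Its log2 fold change was -0.74 ± 0.16 (edgeR adjusted p = 0.0266). These 3 calls each rested on 2 of the libraries. Without TgfbrIWT/mut library 1 the log2 fold changes were -0.58 for Klf2, -0.80 for Ccr7 and -0.55 for Selplg, with edgeR adjusted p = 0.28, 0.145 and 0.168 in that order of genes. Without WT library 1 they were -0.78, -0.72 and -0.56, with edgeR adjusted p = 0.109, 0.222 and 0.786.

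The exit receptor S1pr1 had 33.1 and 56.2 scaled CPM in the TgfbrIWT/mut libraries, against 64.8 and 59.7 in the WT libraries. Its log2 fold change of -0.59 ± 0.19 did not pass (edgeR adjusted p = 0.17). It was -0.17 without TgfbrIWT/mut library 1 and -0.91 without TgfbrIWT/mut library 2. Gpr183 had 172 and 150 scaled CPM in the TgfbrIWT/mut libraries, against 243 and 190 in the WT libraries (-0.42 ± 0.15, edgeR adjusted p = 0.203). Il7r was alone in standing higher, with 18.6 and 17.6 scaled CPM in the TgfbrIWT/mut libraries, against 17.3 and 13.5 in the WT libraries (0.22 ± 0.20, edgeR adjusted p = 0.673). No gene of the 6 overlapped between genotypes, as was the case for 46.1% of all genes tested (22.8% lower and 23.3% higher in TgfbrIWT/mut cells). The median log2 fold change of the 6 was -0.67, against 0.00 over all genes tested, where the quartiles were -0.17 and 0.18.

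The mix of cell states moved with these differences. The summed CPM of 14 Tfh markers was 5238 and 4352 in the TgfbrIWT/mut libraries, against 3172 and 4215 in the WT libraries, and that of 11 naive or memory markers 1803 and 1851, against 2174 and 2002. Of the kept T cells, 4.42% and 6.63% were naive or memory-like in the TgfbrIWT/mut libraries, against 21.0% and 11.1% in the WT libraries. The second Tfh-like cluster made up 24.1% and 13.3% in the TgfbrIWT/mut libraries, against 4.39% and 8.56% in the WT libraries. The first Tfh-like cluster overlapped between the genotypes, at 17.5% and 14.4% in the TgfbrIWT/mut libraries, against 10.7% and 19.7% in the WT libraries. The cluster led by Eomes and Nkg7 made up 2.95% and 3.87% in the TgfbrIWT/mut libraries, against 12.1% and 8.72% in the WT libraries. Next, the 7 clusters with at least 10 cells in every library were weighted by their share of the cells of these 7, averaged over the libraries. Each cluster thus had the same weight in every library, while the clusters differed in weight from each other. The other clusters were left out, among them the gut-homing effector-like one and that led by Eomes and Nkg7. Unweighted CPM covers all kept T cells, so the weighted values differ from it in cells as well as in weights. With these shared weights Klf2 had 58.2 and 98.5 CPM in the TgfbrIWT/mut libraries, against 119 and 95.6 in the WT libraries, which overlap. The log2 ratio of the genotype means then was -0.46 for Klf2, against -1.0 from unweighted CPM. For Ccr7 it was -0.25 against -0.90, for Selplg -0.28 against -0.66, for S1pr1 -0.14 against -0.44 and for Gpr183 -0.19 against -0.40. For Il7r the ratio was larger with the shared weights, 0.84 against 0.27. Without both Tfh-like clusters none of the 3 calls held (edgeR adjusted p = 0.1 for Klf2, 0.0658 for Ccr7 and 0.101 for Selplg), with log2 fold changes of -0.86, -0.60 and -0.53.

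**Figure D2:**
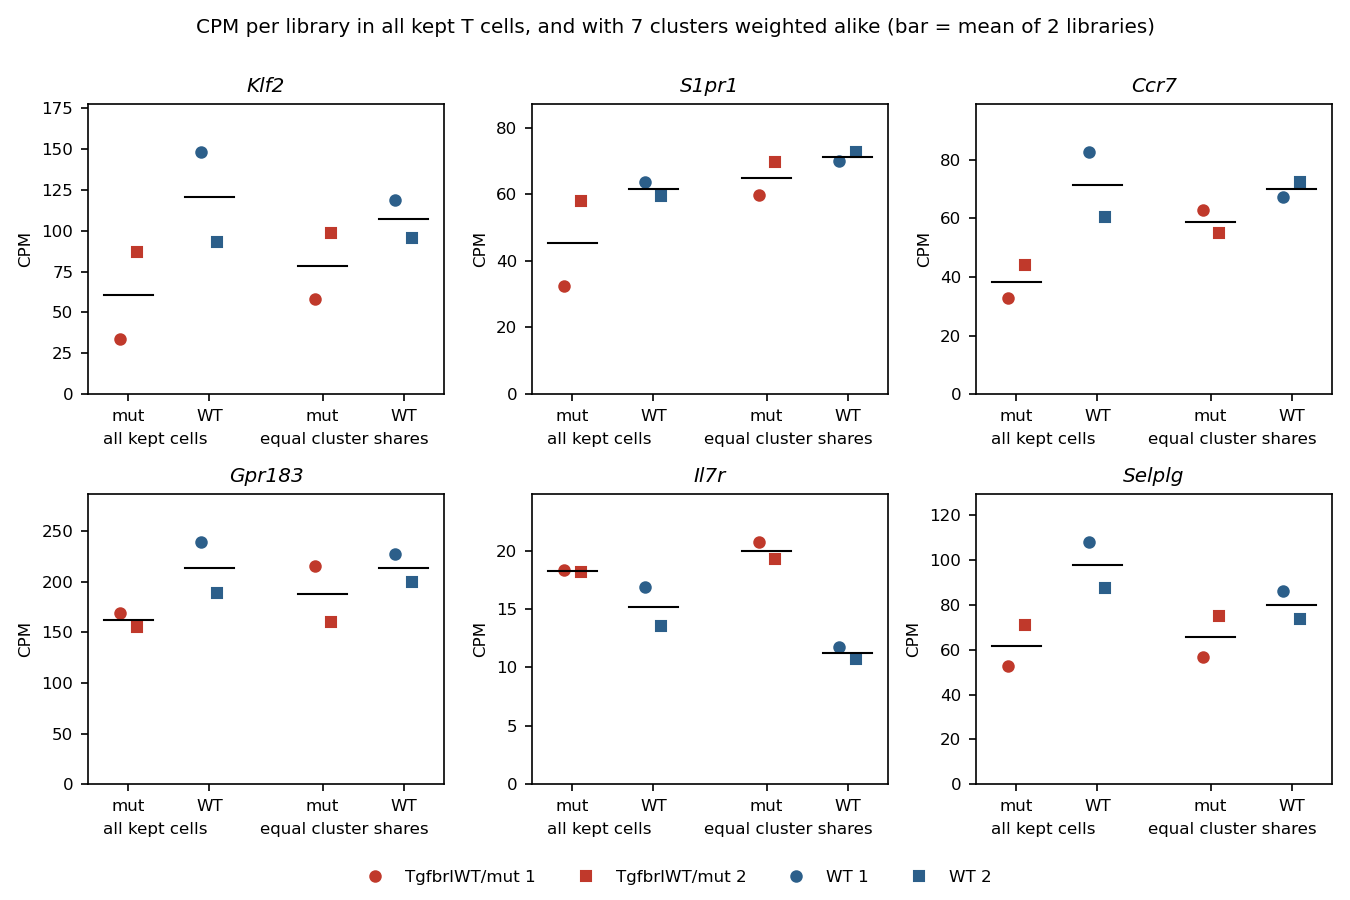
CPM of each gene per library (linear vertical axis from 0), TgfbrIWT/mut left of WT, in all kept T cells (left pair in each panel) and with 7 clusters weighted (right pair). Each cluster has the same weight in every library, and the weights differ between clusters. The right pair leaves out the cells of all other clusters. Points are libraries and bars means of 2 libraries. The gap between genotypes in Klf2, Ccr7 and Selplg is narrower in the right pair, and that of Il7r is wider.

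Few cells carried the Klf2 UMIs of TgfbrIWT/mut library 2. The gene had 267 UMIs in 115 cells and 148 UMIs in 37 cells in TgfbrIWT/mut libraries 1 and 2, against 1788 UMIs in 501 cells and 532 UMIs in 175 cells in WT libraries 1 and 2. The 3 cells with the most Klf2 held 10.9% and 31.1% of its UMIs in the TgfbrIWT/mut libraries, against 3.36% and 7.71% in the WT libraries. As 3 cells are a larger part of 37 than of 501, these shares also follow the number of cells with a UMI. A sum over cells cannot tell fewer cells of a state from less RNA per cell, which the shares of cells and the comparisons within states below address in part.

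The antibody tags allowed the WT libraries to be split. Of the kept cells, 90.3% in WT library 1 and 87.2% in WT library 2 had at least 5 tag UMIs with at least 80% of them from 1 tag, and the labels do not say what a tag marks. In WT library 1, Klf2 had 139, 137 and 164 CPM in cells of tags 301, 302 and 303, all above both TgfbrIWT/mut libraries (34.0 and 86.8 CPM unscaled). In WT library 2, the same tags gave 59.6, 59.1 and 96.8 CPM, so cells of 2 tags lay below TgfbrIWT/mut library 2. Ccr7 had 86.4, 58.4 and 105 CPM by tag in WT library 1 and 39.5, 59.1 and 67.3 in WT library 2. Selplg had 98, 106 and 114 CPM in WT library 1 and 59.6, 78.8 and 92.6 in WT library 2. For both genes, cells of tag 301 in WT library 2 lay below TgfbrIWT/mut library 2, which had 44.0 CPM of Ccr7 and 71.0 of Selplg. Naive or memory-like cells were 4.55%, 9.86% and 13.0% of the tagged cells in WT library 2, against 19.8%, 21.5% and 20.5% in WT library 1, in tag order.

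**Figure D3:**
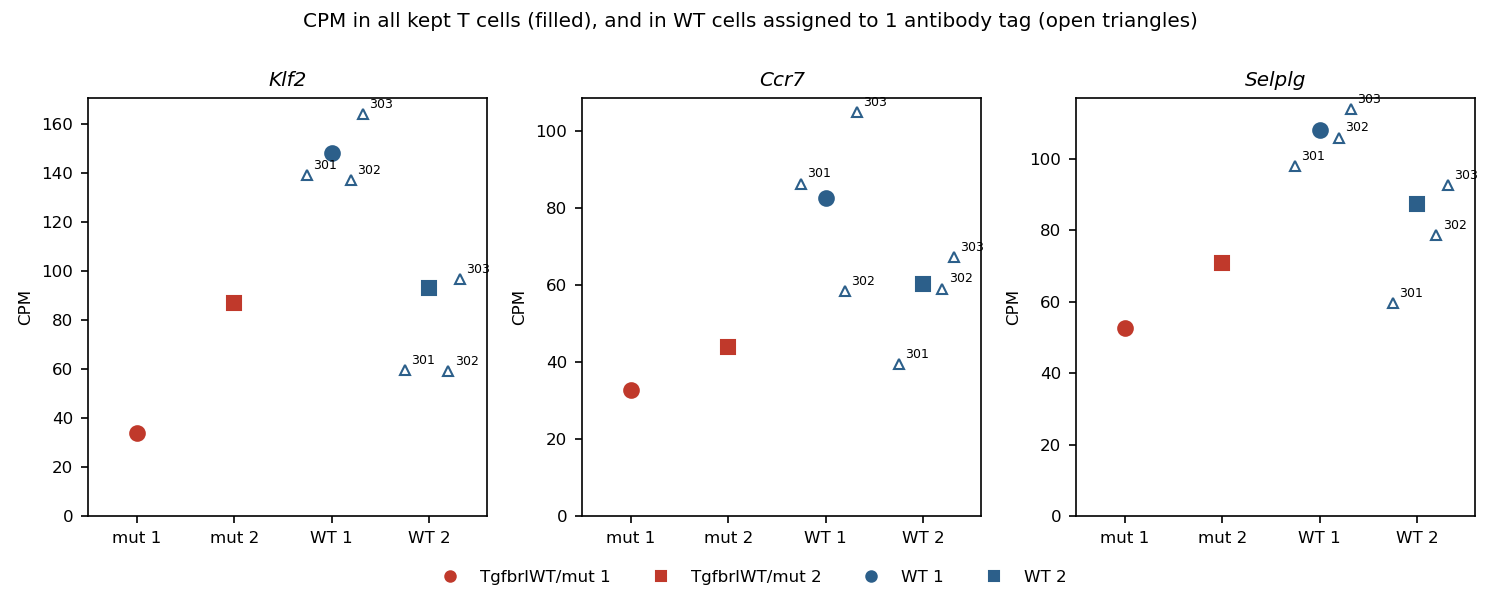
CPM of Klf2, Ccr7 and Selplg per library (filled points, linear vertical axis from 0), TgfbrIWT/mut left of WT, with WT cells also split by antibody tag (open triangles labelled 301, 302 and 303). In WT library 2 the tag 301 triangle lies below the filled TgfbrIWT/mut 2 point in all 3 panels.

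Within Tfh-like cells, Gpr183 fell in TgfbrIWT/mut cells. The class held 367 and 50 cells in the TgfbrIWT/mut libraries and 192 and 178 in the WT libraries. Gpr183 had 37.1 and 40.9 scaled CPM in the TgfbrIWT/mut libraries, against 65.6 and 93.5 in the WT libraries. The values do not overlap, and the means were 39.0 ± 2.69 in TgfbrIWT/mut and 79.6 ± 19.7 in WT cells. The log2 fold change was -1.04 ± 0.20 (edgeR adjusted p = 0.0108), in a test that called 0.393% of 8900 genes in either direction and 0.191% lower. The class was not made up alike in the genotypes. Its second cluster, the lower one in Gpr183, held 213 of 367 and 24 of 50 cells in the TgfbrIWT/mut libraries, against 56 of 192 and 54 of 178 in the WT libraries. Within the first cluster alone Gpr183 had 75.2 and 51.4 scaled CPM in the TgfbrIWT/mut libraries, against 92.9 and 136 in the WT libraries, and did not pass (-0.70 ± 0.20, edgeR adjusted p = 0.105, with 0.387% of 8277 genes called, 0.157% lower and 0.23% higher). Within the second cluster Gpr183 had 14.8 and 31.1 unscaled CPM in the TgfbrIWT/mut libraries, against 14.7 and 15.3 in the WT libraries. In TgfbrIWT/mut library 2 only 4.17% of the 24 cells had a UMI, so its 31.1 CPM came from a single cell. The 4 values come from 34 and 9 UMIs in the TgfbrIWT/mut libraries and 10 and 9 in the WT libraries, too few for the test, which called 0.107% of 6557 genes there (0.0458% lower, 0.061% higher).

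Over all alternatives the Gpr183 call in Tfh-like cells was kept in 8 and lost in 7, with the direction unchanged. It was lost without TgfbrIWT/mut library 1 (log2 fold change -0.93) or WT library 2 (-0.77). With DESeq2 the log2 fold change was -1.04 and the adjusted p 0.826. Selplg in Tfh-like cells had 29.2 and 35.8 scaled CPM in the TgfbrIWT/mut libraries, against 54.0 and 43.5 in the WT libraries (-0.65 ± 0.22, edgeR adjusted p = 0.263). S1pr1 had 5.84 and 6.82 in the TgfbrIWT/mut libraries, against 16.1 and 8.23 in the WT libraries (-0.93 ± 0.44, edgeR adjusted p = 0.524). Klf2 counted 9 and 0 UMIs in the TgfbrIWT/mut libraries and 18 and 3 in the WT libraries, Ccr7 3 and 0 against 4 and 2, and Il7r 3 and 0 against 4 and 10. These 3 genes were too low to test in Tfh-like cells.

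In recently stimulated-like cells Gpr183 had 384 and 330 scaled CPM in the TgfbrIWT/mut libraries, against 453 and 319 in the WT libraries, which overlap (-0.10 ± 0.19, edgeR adjusted p = 0.971). The genotype effect on Gpr183 differed between the 2 classes, with a log2 fold change in Tfh-like cells minus that in recently stimulated-like cells of -0.95 ± 0.23 (edgeR adjusted p = 0.0278). That test, with the library as a block, called 0.247% of 8913 genes, 0.0673% of them in this direction and 0.18% in the other. It took no account of the unlike mix of the 2 Tfh-like clusters in the genotypes. Without TgfbrIWT/mut library 1 the difference was -0.66 (edgeR adjusted p = 0.641) and without WT library 2 it was -0.46 (edgeR adjusted p = 1.0). Klf2 in recently stimulated-like cells had 32.2 and 86.2 scaled CPM in the TgfbrIWT/mut libraries, against 118 and 91.3 in the WT libraries. It did not pass (-1.20 ± 0.29, edgeR adjusted p = 0.0723), in a test that called 0.0518% of 7724 genes, 0.0259% in each direction. Its log2 fold change was -0.30 without TgfbrIWT/mut library 1 and -1.67 without TgfbrIWT/mut library 2. S1pr1 and Ccr7 overlapped between genotypes in these cells, at 45.8 and 101 against 53.7 and 106 scaled CPM for S1pr1 and 47.2 and 93.4 against 43.5 and 72.8 for Ccr7, TgfbrIWT/mut libraries first in each pair.

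In naive or memory-like cells none of the 6 genes passed, and TgfbrIWT/mut library 2 had 12 such cells, under the minimum of 20 fixed for this test. Run at a minimum of 10, the test called 0.0543% of 5528 genes, 0.0181% lower and 0.0362% higher. Klf2 had 219 and 398 scaled CPM in the TgfbrIWT/mut libraries, against 400 and 377 in the WT libraries (-0.44 ± 0.22, edgeR adjusted p = 0.78). In TgfbrIWT/mut library 2, 3 cells held 70.2% of these Klf2 UMIs. The log2 fold change was -0.01 without TgfbrIWT/mut library 1 and -0.83 without TgfbrIWT/mut library 2.

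Il7r in naive or memory-like cells had 103 and 48.9 scaled CPM in the TgfbrIWT/mut libraries, against 34.8 and 31.7 in the WT libraries, from 33 and 7 UMIs in TgfbrIWT/mut and 79 and 19 in WT libraries. The groups did not overlap, and the log2 fold change of 1.27 ± 0.33 did not pass (edgeR adjusted p = 0.245). It was 0.47 without TgfbrIWT/mut library 1 and 1.55 without TgfbrIWT/mut library 2. Ccr7 had 219 and 119 scaled CPM in the TgfbrIWT/mut libraries, against 210 and 229 in the WT libraries. S1pr1 had 185 and 133 in the TgfbrIWT/mut libraries and 166 and 178 in the WT libraries, so neither receptor separated the genotypes. Gpr183 had 279 and 97.8 scaled CPM in the TgfbrIWT/mut libraries, against 178 and 148 in the WT libraries. The log2 fold change of Gpr183 in Tfh-like cells minus that in naive or memory-like cells was -1.42 ± 0.27 (edgeR adjusted p = 0.000678, with 0.175% of 8585 genes called, 0.105% in this direction and 0.0699% in the other). That difference was -0.07 without TgfbrIWT/mut library 1 and -1.02 without WT library 2 (edgeR adjusted p = 1.0 and 0.98).

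Cluster 3, led by Id2, had none of the fixed state markers among its leading genes and at least 37 cells in each library. Klf2 there had 117 and 124 scaled CPM in the TgfbrIWT/mut libraries, against 96.8 and 72.7 in the WT libraries, the opposite order to that over all cells (0.44 ± 0.21, edgeR adjusted p = 0.508). Il7r had 17.8 and 40.0 in the TgfbrIWT/mut libraries, against 7.50 and 9.25 in the WT libraries, from 11 and 10 UMIs in TgfbrIWT/mut and 10 and 7 in WT libraries (1.34 ± 0.55, edgeR adjusted p = 0.349). Neither passed, in a test that called 0.192% of 6777 genes, 0.0295% lower and 0.162% higher. Ccr7 lay at 115 and 96.0 scaled CPM in the TgfbrIWT/mut libraries and 114 and 110 in the WT libraries.

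**Figure D4:**
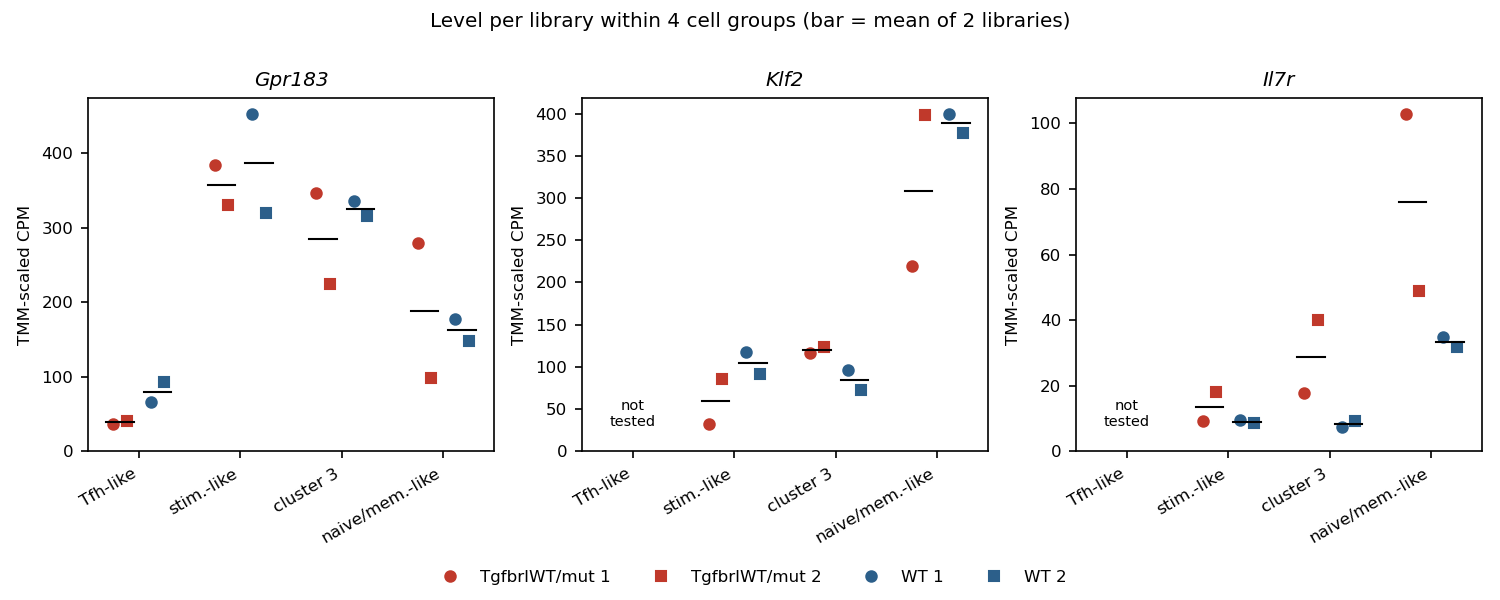
TMM-scaled CPM (linear vertical axis from 0) of Gpr183, Klf2 and Il7r per library in Tfh-like, recently stimulated-like, cluster 3 and naive or memory-like cells, TgfbrIWT/mut left of WT in each. Points are libraries and bars means of 2 libraries. Gpr183 separates the genotypes in Tfh-like cells and overlaps in the other 3 groups, and Il7r is higher in TgfbrIWT/mut libraries in cluster 3 and in naive or memory-like cells, where it did not pass the test.

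The share of cells with a UMI was compared after each cell was thinned to 3000 UMIs, with exact 95% binomial intervals that cover counting error only. The shallower cells left out numbered 34 and 21 in the TgfbrIWT/mut libraries and 13 and 18 in the WT libraries. Klf2 was found in 7.78% (6.07 to 9.80) and 10.0% (5.82 to 15.7) of cells in the TgfbrIWT/mut libraries, against 25.5% (23.1 to 28.0) and 17.8% (14.8 to 21.0) in the WT libraries. The interval of TgfbrIWT/mut library 2 overlaps that of WT library 2, and that of TgfbrIWT/mut library 1 overlaps neither WT library. Unthinned, the Klf2 shares were 13.0% and 20.4% in the TgfbrIWT/mut libraries and 39.3% and 27.7% in the WT libraries. Selplg was found in 13.0% and 21.2% of thinned cells in the TgfbrIWT/mut libraries, against 27.9% and 25.4% in the WT libraries (unthinned 33.3% and 41.4%, against 56.2% and 46.4%). Ccr7 was found in 9.32% and 11.9%, against 18.4% and 15.5% (unthinned 15.4% and 23.8%, against 34.7% and 27.6%), TgfbrIWT/mut libraries first. S1pr1 followed with 8.84% and 12.5% in the TgfbrIWT/mut libraries, against 16.2% and 15.5% in the WT libraries (unthinned 15.8% and 25.4%, against 31.3% and 28.4%). The Gpr183 shares were 32.8% and 31.9% in the TgfbrIWT/mut libraries and 40.8% and 33.1% in the WT libraries (unthinned 45.9% and 48.1%, against 61.4% and 54.4%). In thinned cells only WT library 2 lay close to the TgfbrIWT/mut libraries. Il7r was rare, at 3.42% and 5.00% in the TgfbrIWT/mut libraries and 4.28% and 3.26% in the WT libraries (unthinned 5.33% and 8.29%, against 7.21% and 4.91%).

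Free RNA gives UMIs in cells that do not express a gene, so the same share was taken in 38 epithelial cells found by a finer clustering, thinned like the T cells to 1000 UMIs because their median depth was 2971.5 UMIs, against 8770.5 in T cells. Klf2, Ccr7, Gpr183 and Selplg were each in 2.63% of the epithelial cells, with an interval of 0.0666 to 13.8, and S1pr1 and Il7r in none, with an upper bound of 9.25%. In T cells at that depth the shares were 8.38% for Klf2, 5.44% for S1pr1, 5.41% for Ccr7, 17.5% for Gpr183, 1.56% for Il7r and 7.88% for Selplg. Only Gpr183 lay above the epithelial interval. In the 786 Tfh-like cells at 1000 UMIs, Klf2 was in 0.254% and Ccr7 in none, which allows up to 0.468%. Both are below the epithelial share, and Il7r, in 0.127%, is within the epithelial interval. From 38 cells these intervals are too wide to tell background from low expression. Unthinned, 1 Tfh-like cell of WT library 2 held 8 of the 10 Il7r UMIs of its class there. In WT library 1 the most Klf2 UMIs in 1 Tfh-like cell was 5, of 18 in the class.

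Klf2 and S1pr1 met in the same cells more often than their separate shares would give, in all 4 libraries. At 3000 UMIs the Klf2+S1pr1 pair was seen in 22 and 5 cells in the TgfbrIWT/mut libraries and in 108 and 36 cells in the WT libraries. Its odds ratios were 6.89 and 4.00 in the TgfbrIWT/mut libraries, against 4.43 and 3.72 in the WT libraries. For the Klf2+Ccr7 pair the odds ratios were 4.47 and 1.26 in the TgfbrIWT/mut libraries, against 2.61 and 4.19 in the WT libraries, the 1.26 resting on 2 cells with both. The Klf2+Gpr183 pair had 2.19 and 0.516 in the TgfbrIWT/mut libraries, against 0.766 and 1.22 in the WT libraries, on either side of 1 in both genotypes. With Cxcr5, the follicle-homing receptor gene, Klf2 met less often than separate shares would give. The Klf2+Cxcr5 odds ratios were 0.232 and 0.142 in the TgfbrIWT/mut libraries, against 0.530 and 0.572 in the WT libraries. Inside the naive or memory-like class, where both genes were common, the Klf2+S1pr1 odds ratio was 0.955 in TgfbrIWT/mut library 1, against 2.54 and 0.858 in the WT libraries. In recently stimulated-like cells the same pair had 5.71 and 11.4 in the TgfbrIWT/mut libraries, against 3.13 and 3.67 in the WT libraries, from 7, 1, 9 and 12 cells with both. These ratios describe cells of a library, which are not replicates, and no test was made of them.

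Counted together at 3000 UMIs, none of the 6 genes was found in 52.0% and 43.8% of cells in the TgfbrIWT/mut libraries, against 27.2% and 37.8% in the WT libraries. Thinned to 5000 UMIs, 3.22% and 6.67% of cells had 4 or more in the TgfbrIWT/mut libraries, against 9.64% and 7.29% in the WT libraries. The values that follow are again at 3000 UMIs. The mean number per cell was 0.751 and 0.925 in the TgfbrIWT/mut libraries, against 1.33 and 1.11 in the WT libraries. By state, Tfh-like cells had a mean of 0.188 and 0.250 in the TgfbrIWT/mut libraries, against 0.349 and 0.350 in the WT libraries, and recently stimulated-like cells 1.15 and 1.09, against 1.29 and 1.48. Cluster 3 had 1.51 and 1.67 in the TgfbrIWT/mut libraries, against 1.54 and 1.40 in the WT libraries, and naive or memory-like cells had 1.87 in TgfbrIWT/mut library 1, against 2.10 and 2.33 in the WT libraries. Tfh-like cells without any of the 6 made up 83.4% and 77.1% in the TgfbrIWT/mut libraries, against 72.4% and 72.3% in the WT libraries.

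**Figure D5:**
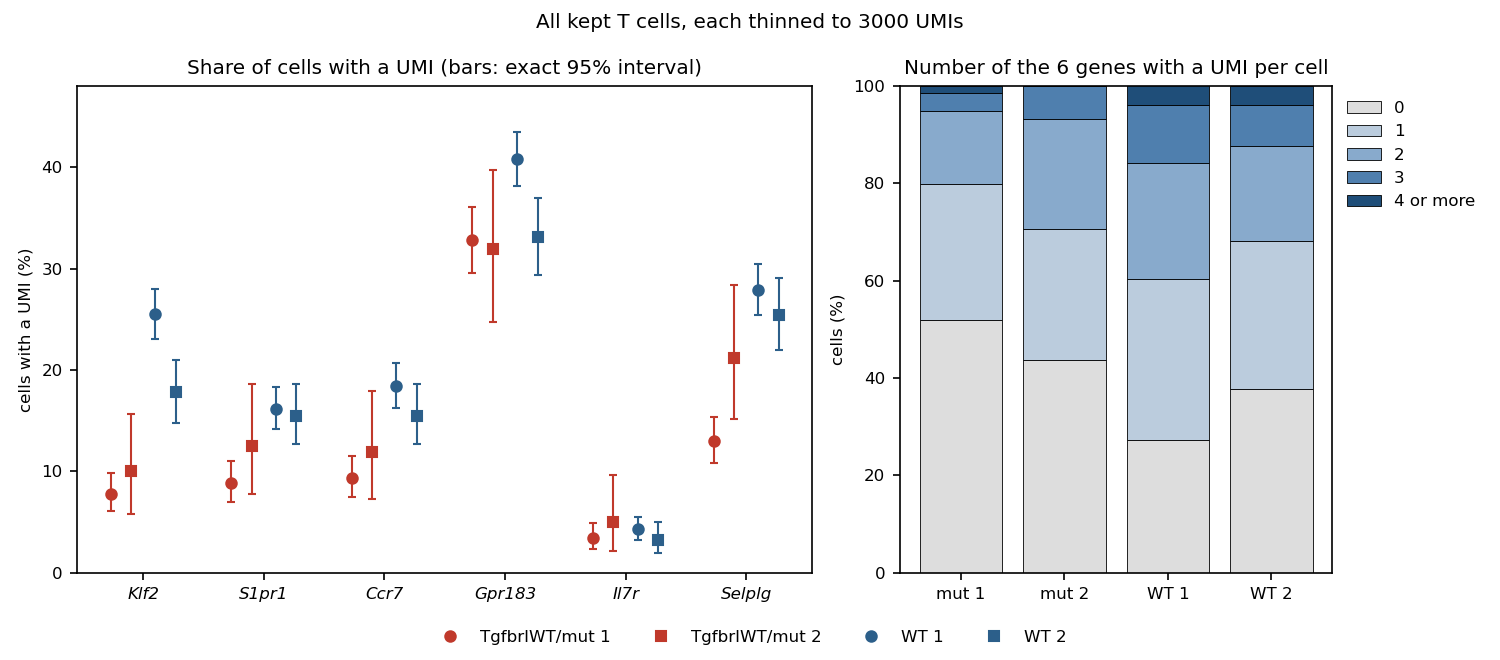
Left, share of kept T cells with a UMI of each gene (percent, linear axis from 0) per library after thinning to 3000 UMIs, TgfbrIWT/mut left of WT, with exact 95% intervals as bars. Right, stacked bars of the percent of cells with 0, 1, 2, 3 or 4 or more of the 6 genes. The Klf2 share is 7.78% and 10.0% in the TgfbrIWT/mut libraries, against 25.5% and 17.8% in the WT libraries.

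The test over all kept T cells was also read for 60 other genes of the same pathways, in 6 lists, and none passed in either direction, where 0.503% of all genes were lower and 0.867% higher. Of the regulators of Klf2 and related KLF factors, 10 of 10 were tested, with a median log2 fold change of -0.13. Klf3, a repressor of the KLF family, had 111 and 122 scaled CPM in the TgfbrIWT/mut libraries, against 79.2 and 80 in the WT libraries, and lay just outside the threshold (0.54 ± 0.13, edgeR adjusted p = 0.0509). Klf6 stood at -0.74 ± 0.22 (edgeR adjusted p = 0.12) and Klf13 at -0.22 ± 0.13 (edgeR adjusted p = 0.498). The MEF2 gene Mef2a was at 55.4 and 51.0 scaled CPM in the TgfbrIWT/mut libraries, against 50.1 and 56.9 in the WT libraries.

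For the egress list 8 of 10 genes were tested, with a median of 0.02. The values were -0.04 for Gnai2 and 0.08 for Grk2, which encode a G protein and a kinase that act on S1PR1 among other receptors, and -0.33 for Cd69, whose protein pulls S1PR1 off the cell surface. Entry genes were tested for 12 of 12, with a median of -0.07, and the 3 with the most UMIs were Coro1a (-0.16), Tln1 (0.22) and Itgal (0.23). Of 9 placement genes 6 were tested, with a median of 0.28. Cxcr5 had 108 and 101 scaled CPM in the TgfbrIWT/mut libraries, against 62.8 and 79.1 in the WT libraries, without overlap (0.57 ± 0.14, edgeR adjusted p = 0.0574). Gna13 was at 0.58 and Arhgef1, which encodes its effector, at 0.08. The interleukin 7 list had 9 of 9 tested and a median of -0.05, with 0.03 for Jak1, -0.10 for Il2rg and 0.26 for the survival gene Bcl2. The selectin-ligand enzymes had 8 of 10 tested and a median of -0.33, with -0.43 for Tpst2, -0.24 for B4galt1 and 0.25 for C1galt1.

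Inside Tfh-like cells 1 of the pathway genes tested passed, where 0.202% of all 8900 genes tested were higher and 0.191% lower. Tested there were 9 of 10 Klf2 regulators and KLF factors, 8 of 10 egress, 10 of 12 entry and 5 of 9 placement genes. Of the interleukin 7 list 8 of 9 were tested, and of the selectin-ligand enzymes 6 of 10. Bcl2, which encodes an inhibitor of cell death, rose in TgfbrIWT/mut cells, with 87.3 and 52.8 scaled CPM in the TgfbrIWT/mut libraries, against 38.9 and 44.7 in the WT libraries (0.88 ± 0.20, edgeR adjusted p = 0.0417). In the first Tfh-like cluster alone its log2 fold change was 0.22 (edgeR adjusted p = 0.939) and in the second 0.56 (edgeR adjusted p = 0.751), and Bcl2 was higher in the second cluster than in the first in all 4 libraries. The second cluster had 120 and 80.6 scaled CPM in the TgfbrIWT/mut libraries, against 64.7 and 83.0 in the WT libraries, and the first 31.5 and 27.4, against 26.3 and 25.5. The call was lost without TgfbrIWT/mut library 1 (0.33, edgeR adjusted p = 0.781), WT library 1 (0.75, 0.526) or WT library 2 (0.95, 0.105). Between Tfh-like and recently stimulated-like cells, the genotype effect differed for Cd69. It had 280 and 109 scaled CPM in Tfh-like cells of the TgfbrIWT/mut libraries, against 203 and 198 in those of the WT libraries. In recently stimulated-like cells it had 233 and 140 in the TgfbrIWT/mut libraries, against 387 and 255 in the WT libraries. The log2 fold change in Tfh-like cells minus that in recently stimulated-like cells was 0.83 ± 0.19 (edgeR adjusted p = 0.0263). It did not pass without TgfbrIWT/mut library 1 (0.35, edgeR adjusted p = 0.844) or WT library 1 (0.50, edgeR adjusted p = 1.0).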

How the data were processed

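The authors deposited whole-number UMI counts per gene and barcode for 4 libraries, made with Cell Ranger 6.0.0 on mm10, and the submitters' processing notes also name Seurat 4. The annotation and any filter before deposit are not given in the sources used here. The other 2 samples are antibody-tag libraries of the WT replicates, not analysed here apart from the tag rows in the WT matrices.

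Of 4803 barcodes, the 3108 with 500 or more detected genes and no more than 10% of UMIs from mitochondrial genes were taken, 31 doublets called by Scrublet were removed per library, and 107 cells of a non-T cluster (epithelial and B cell genes) were set aside. For clustering, each cell's counts were scaled to a sum of 10000, and the 6 genes were left out of the variable genes (1745 used of 2000). Clusters came from scanpy 1.11.5 and leidenalg 0.10.2 (30 principal components, 15 neighbours, resolution 0.8, seed 0). A cluster was named where at least 3 markers of a class were among its 50 leading genes at 2-fold or more, and more than of any other class. Clusters so rebuilt need not match the study's own.

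Counts were summed per library and tested with edgeR 4.0.16 in R 4.3.3 (quasi-likelihood, TMM, filterByExpr, prior count 2, Benjamini-Hochberg over all genes tested, threshold 0.05), after a test on simulated data. DESeq2 1.42.0 was an alternative. The naive or memory-like class fell short of 20 cells in 1 library, so the planned test of effects between classes used Tfh-like and recently stimulated-like cells, and the tests within naive or memory-like, recently stimulated-like and cluster 3 cells were added after the clusters were seen. Other alternatives were the scaling, the filters, leaving out a library, the replicate block, clustering resolution and thinning to 5000 UMIs. Odds ratios had 0.5 added to each cell of the table.

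The text names the 6 genes, for each of them the 3 genes most alike in pattern, and in each pathway list every gene past the threshold or else the 3 with the most UMIs. Mef2a was named besides, for its motif, after its values were seen. The members and lists were chosen with earlier results of these data known. Replicate numbers were not used to pair libraries in the main tests. Deviations of same-numbered libraries correlated at 0.03 over all cells and -0.02 in Tfh-like cells. These correlations cannot exclude a pairing, and results with a replicate block are given below. Intervals cover counting error only.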

Additional observations from a re-analysis of the deposited data

Results flagged for a closer look

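The genotype effect on Gpr183 differed between Tfh-like and recently stimulated-like cells (edgeR adjusted p = 0.0278) and between naive or memory-like and Tfh-like cells (edgeR adjusted p = 0.000678), by tests of the difference itself. The groups behind the second test include 12 naive or memory-like cells from TgfbrIWT/mut library 2, with 14 Gpr183 UMIs. Without 1 library the first difference ran from -1.48 to -0.46 and the second from -1.79 to -0.07. DESeq2 called no gene in either test. Neither test took account of the mix of the Tfh-like clusters, which was not alike in the genotypes.

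For Cd69 the effect differed between Tfh-like and recently stimulated-like cells (edgeR adjusted p = 0.0263). For Il7r it differed between naive or memory-like and Tfh-like cells (edgeR adjusted p = 0.042), but Tfh-like cells held 3 and 0 Il7r UMIs in the TgfbrIWT/mut libraries and 4 and 10 in the WT libraries, 8 of the last 10 in a single cell, so no size is given. That call was lost in 9 of 11 alternatives.

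Antibody tags outside the gene counts gave 37707 UMIs in WT library 1 and 20474 in WT library 2 over all barcodes, and there were no tag rows in the TgfbrIWT/mut matrices. The levels of the genes by tag are in the report for Klf2, Ccr7 and Selplg.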

How the results depend on the processing

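Of the log2 fold changes of the 6 genes under all alternatives, 354 kept direction and side of the threshold, 42 no longer passed, 9 newly passed and 14 changed direction, all 14 when 1 library was left out. The number of genes called over all kept T cells was 147, and it was 64 with DESeq2, 75 with library totals in place of TMM, 410 with no filter on low counts, 94 with doublets kept in, 0 with non-T clusters kept in (edgeR, 958 at an unadjusted p under 0.05) and 7 to 267 without 1 library. In Tfh-like cells 35 were called, and 1 with DESeq2, 76 with no filter, 71 at no more than 5% mitochondrial UMIs, 7 at resolution 1.2, 18 with the 6 genes kept in the clustering, 7 in the second cluster alone and 21 to 159 without 1 library. Naive or memory-like cells had 3, and 14 with no filter, 5 at the 5% limit, 20 at resolution 1.2 and 0 to 53 without 1 library. Recently stimulated-like cells had 4, and 0 with DESeq2 (69 unadjusted), 25 with no filter, 2 at the 5% limit and 0 to 26 without 1 library. Cluster 3 had 13, and 0 with DESeq2 (99 unadjusted), 27 with no filter, 4 at the 5% limit, 7 at 1000 or more detected genes and 5 to 43 without 1 library. The difference between Tfh-like and recently stimulated-like effects was called for 22 genes, and 0 with DESeq2 (63 unadjusted), 47 at the 5% limit and 7 to 28 without 1 library. That between Tfh-like and naive or memory-like effects was called for 15, and 0 with DESeq2 (76 unadjusted), 6 at resolution 1.2 and 0 to 12 without 1 library. The cause of these shifts was not tested. With a replicate block the counts were 351 over all kept T cells, 2 in Tfh-like cells, 11 in recently stimulated-like cells and 33 in cluster 3. The block moved S1pr1 over all cells past the threshold (-0.59, edgeR adjusted p = 0.0442) and Gpr183 in Tfh-like cells out of it (-0.93, edgeR adjusted p = 0.144), and Bcl2 in Tfh-like cells likewise (0.81, edgeR adjusted p = 0.321).

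In cells thinned to 5000 UMIs the Klf2 shares were 9.54% and 17.3% in the TgfbrIWT/mut libraries, against 32.2% and 23.6% in the WT libraries. There the Klf2+Ccr7 odds ratio was 4.50 in TgfbrIWT/mut library 2, and the Klf2+S1pr1 odds ratios in recently stimulated-like cells were 3.14 and 2.06 in the TgfbrIWT/mut libraries, against 1.80 and 1.52 in the WT libraries. With DESeq2, Ccr7 over all kept T cells still passed and the adjusted p of Klf2 was 1.0 and of Selplg 0.0631. Klf2 and Selplg did not pass with library totals (edgeR adjusted p = 0.134 and 0.0701) or with doublets kept in (0.0853 and 0.0626), and Klf2 not without the shallow cluster 8 (0.113) or the cluster led by Fos and Jun (0.0648). Without cluster 8, S1pr1 was -0.78 (edgeR adjusted p = 0.0493). With non-T clusters kept in, edgeR adjusted p was 0.504 for Klf2, 0.411 for Ccr7 and 0.445 for Selplg. Without 1 library, log2 fold changes in naive or memory-like cells ran from -0.40 to 0.11 for S1pr1, -0.90 to 0.01 for Ccr7 and -0.80 to 0.72 for Gpr183. In recently stimulated-like cells they ran from -0.77 to 0.38 for S1pr1, -0.26 to 0.71 for Ccr7 and -0.33 to 0.18 for Gpr183. In cluster 3 they ran from -0.19 to 0.17 for S1pr1, -0.57 to 0.34 for Selplg, -0.23 to 0.03 for Ccr7 and -0.55 to 0.09 for Gpr183. The difference of effects between Tfh-like and recently stimulated-like cells ran from -1.27 to 0.55 for S1pr1 and -0.30 to 0.47 for Selplg. Naive or memory-like cells could not be tested at resolution 0.5 or with the 6 genes kept in the clustering, as no cluster was so named. For the same reason or too few cells, the difference tests were not run there, nor that with recently stimulated-like cells at resolution 1.2, and as they have the library as a block no separate replicate block was run.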

Other observations

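Levels by antibody tag were also taken for the other 3 genes. S1pr1 had 61.8, 67.9 and 58.2 CPM in cells of tags 301, 302 and 303 in WT library 1, and 49.9, 47.6 and 65.0 in WT library 2. Gpr183 had 212, 254 and 243 CPM in WT library 1 and 169, 195 and 189 in WT library 2. Il7r had 14.0, 17.1 and 20.5 CPM in WT library 1 and 9.67, 27.9 and 14.0 in WT library 2, where the tags held 132, 71 and 347 cells.

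In a small unnamed cluster led by the immediate-early genes Fos and Jun, 59 cells of WT library 1 had 151 CPM of Klf2 and 449 CPM of Gpr183. The other libraries had 5, 0 and 9 cells of it (TgfbrIWT/mut 1, TgfbrIWT/mut 2 and WT 2).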
